A study of Oncorhynchus mykiss with 6 samples.

Results

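miR-203, miR-205, miR-184 and miR-31 are miRNAs of stratified epithelium, and their entries in small RNA libraries of rainbow trout (Oncorhynchus mykiss) skin are described here. The members were chosen by name: every entry of the deposited miRNA table whose name without its final letter is one of these 4 family names. There were 10 such entries, among 709 known and 1939 entries in all. The libraries were made from dorsal skin of 45-day-old trout. A group of 3 libraries came from the yellow mutant with yellow skin (YR) and a group of 3 from wild-type trout with black skin (WR). The labels name neither the gene changed in the yellow mutant nor whether the libraries of a group came from separate fish, so p-values cover only the spread between these libraries, which may be technical. The series asks which miRNAs differ between the skins of the 2 colours.

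A miRNA guides a silencing complex to mRNAs that pair with its seed, bases 2 to 8 counted from its 5′ end. In mouse and human epidermis, miR-203 is the miRNA of keratinocytes that leave the basal layer, where it represses the basal transcription factor p63. miR-205 is abundant in basal keratinocytes and stem cells of mammalian skin and promotes their survival and migration, and miR-184 was described in human keratinocytes and corneal epithelium as an antagonist of miR-205 on the lipid phosphatase SHIP2. miR-31 is known in mammalian skin for its rise in wounded and psoriatic epidermis. These roles come from mammals and were not measured in these trout.

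The most abundant entry of each family carries the comparison, and its listed sequence is shown with the seed in capitals because the seeds set the families apart.
miR-205-x: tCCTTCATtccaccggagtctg
miR-184-y: tGGACGGAgaactgataagggc
miR-203-y: tGAAATGTttaggaccactcg
miR-31-x: aGGCAAGAtgctggcatagct
An x entry is read here as the 5′ arm of the hairpin and a y entry as the 3′ arm, while z has no stated arm. The 10 members hold 7 different seeds, and no seed is shared between the 4 families. Sharing of seeds was found within families, where each z entry carries the seed of the abundant arm. The deposited sequences are DNA letters. A known entry has a family number and a final letter but no stated locus or genome position, so it may pool several loci.

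The other entries of these families are the opposite arms and the z variants, printed so that the variants can be compared with the abundant arm above.
miR-203-x: aGTGGTTCttgacagttcaaca
miR-203-z: tGAAATGTttaggaccactcgc
miR-205-y: aTTCCCAGtgggatgaagctc
miR-205-z: tCCTTCATtccaccggagtctgtt
miR-184-x: tTATCACTtttccagcccagc
miR-184-z: tGGACGGAgaactgataaa
miR-205-z was miR-205-x with 2 more bases at its 3′ end, and miR-203-z was miR-203-y with 1 more. miR-184-z was 3 bases shorter than miR-184-y and differed from it by G19A, counted from the 5′ end with the base of miR-184-y first. miR-31 was listed with 1 entry, the x arm. The sources used here do not say how the authors divided reads between such near-identical entries, so the split of reads between an arm and its z variant is uncertain.

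Library totals, the summed counts of all 1939 entries, ran from 8245698 to 10336991. Of these entries 338 repeat an earlier sequence, so some reads may be counted more than once in a total. Levels are given as the deposited TPM, a count divided by a constant of its library. The TPM of a library sums to between 1039894 and 1052569, so a percent of the library total and a TPM rest on different totals. WR replicate 1 stood apart from the rest: entries named after an imprinted miRNA cluster of placental mammals held 36954 counts in it, against 700 to 1203 in each of the other 5 libraries. For the members, calls that change with this library are given with and without it. Markers of other cells were present in both groups, with skeletal muscle miRNAs at 1.25% to 2.32% of the counts in YR and 1.66% to 2.10% in WR. Mesenchymal miRNAs held 30.1% to 37.6% in YR and 29.9% to 32.2% in WR, and pigment cell miRNAs 6.27% to 8.29% in YR and 6.30% to 7.98% in WR. Sensory cell miRNAs held 0.0869% to 0.12% in YR and 0.153% to 0.224% in WR, and liver and gut miRNAs 0.0179% to 0.0237% in YR and 0.0293% to 0.0487% in WR, both lower in every YR library than in every WR library. The epithelial list, given below, separated in the same way. Of the 834 entries tested below, 19.7% likewise lay lower in every YR library in deposited TPM. The list shares rest on unscaled totals, under which 65.1% of those entries had lower estimates in YR. Fewer cells of a type and less miRNA per cell cannot be told apart in such tissue libraries.

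The 4 families together held 6.02% ± 0.647 of the counts in YR and 7.07% ± 0.385 in WR (SD, n = 3 each). The values were 6.60%, 6.12% and 5.32% in the YR libraries and 7.51%, 6.81% and 6.89% in the WR libraries, so that the groups did not overlap. Library totals were also multiplied by their TMM factors, which rest on the bulk of the entries rather than on the most abundant. The share was then 6.50% ± 0.189 in YR and 6.53% ± 0.388 in WR, and the groups overlapped. Families within this sum moved in different directions, each with overlap. Mean TMM-scaled shares were 3.63% in YR and 3.23% in WR for miR-205. They were 0.848% and 1.10% for miR-203 and 2.02% and 2.20% for miR-184, in the same order. The TMM factors were 1.02, 0.913 and 0.841 in YR and 1.19, 1.08 and 0.987 in WR. TMM over other sets of entries gave larger falls of miR-203-y and miR-184-y, printed below. miR-205-x, miR-184-y and miR-203-y made up 99.1% of the counts of the 10 members over the 6 libraries.

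**Figure D1:**
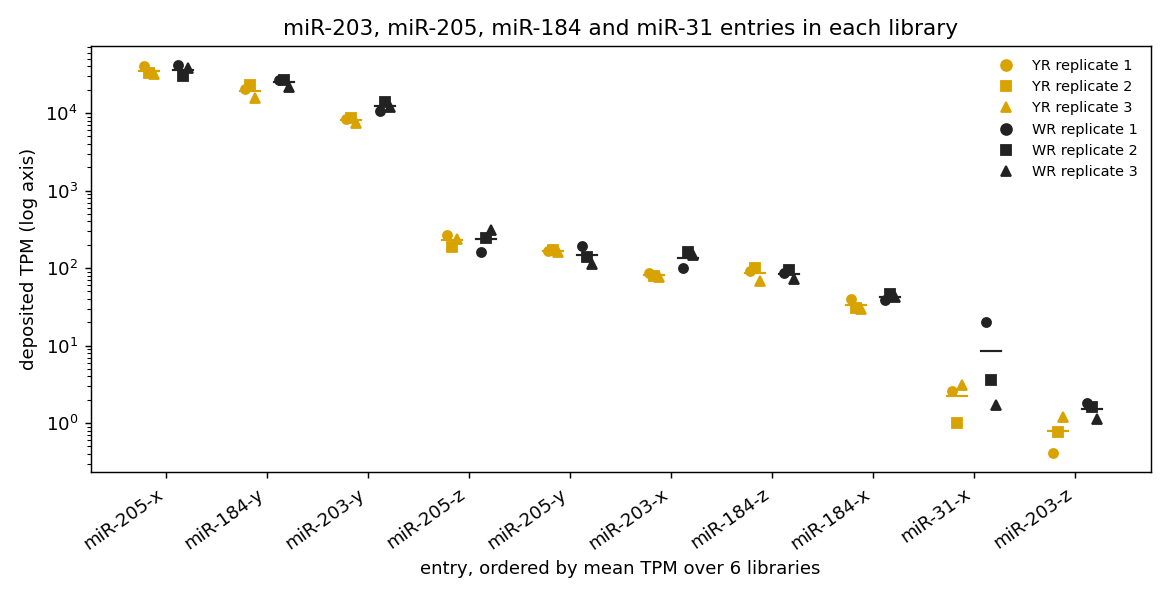
Deposited TPM (log axis) of the 10 miR-203, miR-205, miR-184 and miR-31 entries in each YR library and each WR library, with a line at each group mean. The 3 abundant entries lie between 7438 and 41210 TPM, and the other 7 between 0.411 and 311 TPM, with miR-31-x of WR replicate 1 above its other 5 libraries.

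The order of the abundant entries, miR-205-x above miR-184-y above miR-203-y, held in each of the 6 libraries. Among all entries miR-205-x ranked between 8 and 9 in YR libraries and between 6 and 10 in WR libraries, miR-184-y between 12 and 17 in YR and between 11 and 15 in WR, and miR-203-y between 20 and 22 in YR and between 19 and 21 in WR. The next levels, by the mean over 6 libraries, were miR-205-z at 234.6 TPM, miR-205-y at 156.8, miR-203-x at 108.6 and miR-184-z at 85.35 TPM. Each of these 4 overlapped its neighbour in the order in its range over libraries. miR-184-x, at a mean of 37.7 TPM, lay below miR-184-z in every library, and miR-31-x and miR-203-z, at 5.34 and 1.16 TPM, came last with overlapping ranges.

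Across the whole table, edgeR's quasi-likelihood test with TMM scaling called 44 of 834 tested entries at an adjusted p under 0.05. This was a share of 5.28%, with 18 higher and 26 lower in YR (1 higher and 29 lower with library totals alone). Some tested entries repeat the sequence of another, so shares over all tested entries count some sequences more than once. With 1 entry per distinct sequence, 21 of 691 were called, 3 higher and 18 lower in YR. No member has the exact sequence of another entry. All 10 members had the mean of 1 TPM needed for the test, and 0 of them were called. At an unadjusted p under 0.05 there were 0 members, against 181 of the 834 entries. DESeq2 and limma on log2(TPM + 1) also called 0 members. They had 1 and 2 members at an unadjusted p under 0.05, against 160 and 177 of the 834 entries. In edgeR with library totals alone there were 2 such members, against 185 entries. A minimum mean of 10 TPM gave 3 of 8 members, against 74 of 331 entries, and leaving out single libraries gave 0 to 4 members. In the main test, log2 fold changes (YR over WR) were negative for 6 members, with a median of -0.12. Over all tested entries 51.2% were negative, with a median of -0.03. With library totals alone in place of TMM the median of all entries moved to -0.26 and that of the members to -0.35. The deposited TPM did not overlap between groups for 2 of the 10 members, miR-203-y and miR-203-x, against 28.3% of all tested entries.

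miR-203-y, the mature strand that represses p63 in mammals, stood at 8287, 8564 and 7438 TPM in the YR libraries and at 10730, 14050 and 12090 TPM in the WR libraries. In deposited TPM every YR library was below every WR library. The means were 8096 ± 587 TPM in YR and 12290 ± 1670 TPM in WR (SD, n = 3 each). The log2 fold change after TMM scaling was -0.38 (SE 0.16, 95% interval -0.77 to 0.02, edgeR adjusted p = 0.233), a difference of 1.30-fold that did not pass the test. Among all tested entries, 32.4% had a lower log2 fold change.

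The opposite arm, miR-203-x, had far lower levels. It stood at 86.6, 79.8 and 77.0 TPM in YR and at 98.7, 160.6 and 149.1 TPM in WR, where replicate 1 was closest to the YR libraries. In deposited TPM, which has no TMM scaling, every YR library was below every WR library, as for 19.7% of all tested entries. After TMM scaling the log2 fold change was -0.53 (SE 0.26, edgeR adjusted p = 0.263). The TMM-scaled shares of the miR-203 family, printed below, overlapped between groups. Over the 6 libraries the log2 CPM of miR-203-x and miR-203-y had a Pearson r of 0.963, a description of libraries that share their group and their scaling. miR-203-z was read 4, 6 and 12 times in the YR libraries and 15, 14 and 10 times in the WR libraries, and these low counts overlapped.

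Leaving out WR replicate 1 changed the call for miR-203. Without it miR-203-y fell by 0.67 on the log2 scale (SE 0.09, edgeR adjusted p = 0.00469) and miR-203-x fell by 0.92 (SE 0.12, edgeR adjusted p = 0.00469), whereas 87 entries, or 10.4% of the 834 tested, were called lower in YR by this comparison. The call was not reached without any other single library, where the log2 fold change of miR-203-y ran from -0.42 to -0.32. With library totals alone it was -0.60 (edgeR adjusted p = 0.0593), beside a median of -0.26 for all entries under that scaling. TMM over entries of at least 10 TPM gave -0.58 (edgeR adjusted p = 0.0673), beside a median of -0.12 for all entries. TMM over 1 entry per distinct sequence gave -0.51 (edgeR adjusted p = 0.137), beside a median of -0.17.

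miR-205-x, the most abundant of these miRNAs, stood at 40170, 32330 and 31940 TPM in YR and at 41210, 29910 and 37610 TPM in WR. The groups overlapped, and WR replicate 2 was the lowest library and WR replicate 1 the highest. The means were 34810 ± 4640 TPM in YR and 36240 ± 5780 TPM in WR (SD, n = 3 each). The log2 fold change was 0.17 after TMM scaling (95% interval -0.16 to 0.51, edgeR adjusted p = 0.46) and -0.06 with library totals alone, so its sign depended on the scaling.

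The other miR-205 entries had positive log2 fold changes under TMM and did not pass the test. miR-205-y stood at 165.8, 170.6 and 160.1 TPM in YR and at 194.4, 138.2 and 111.7 TPM in WR. The YR libraries lay close together inside the range of the WR libraries, and the log2 fold change was 0.42 (SE 0.18, edgeR adjusted p = 0.229). Without WR replicate 1 it was 0.43 (edgeR adjusted p = 0.0691). miR-205-z stood at 266.8, 185.3 and 239.9 TPM in YR and at 160.7, 243.5 and 311.0 TPM in WR, with WR replicate 1 the lowest of the 6 libraries and a log2 fold change of 0.15 (SE 0.32, edgeR adjusted p = 0.778), negative at -0.05 with library totals alone and at -0.26 without WR replicate 1.

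The 3′ arm of miR-205 was read under another entry as well, a predicted miRNA that is miR-205-y with 1 more base at its 3′ end. It is shown with a further predicted entry that carries the miR-205-x seed, is 2 bases longer than miR-205-x and differs from it by G18T and T19C, counted from the 5′ end with the base of miR-205-x first.
predicted entry like miR-205-y: aTTCCCAGtgggatgaagctca
predicted entry like miR-205-x: tCCTTCATtccaccggatcctgtt
The predicted 3′ entry had 2272, 1819 and 2589 counts in the YR libraries and 2094, 1890 and 1768 in the WR libraries, and more counts than miR-205-y itself in each. It held 59.3% ± 2.3 of the counts of the pair in YR and 60.6% ± 3.7 in WR (SD, n = 3 each), and the groups overlapped. The predicted entry like miR-205-x had 34, 14 and 31 counts in YR and 10, 23 and 18 in WR.

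miR-184-y stood at 20370, 22630 and 15420 TPM in YR and at 26550, 26800 and 21390 TPM in WR. The highest YR library lay above the lowest WR library, so the groups overlapped. The means were 19470 ± 3690 TPM in YR and 24920 ± 3050 TPM in WR (SD, n = 3 each), and the log2 fold change was -0.12 (SE 0.14, 95% interval -0.45 to 0.21, edgeR adjusted p = 0.583). With TMM over entries of at least 10 TPM it was -0.33 (edgeR adjusted p = 0.191), and with library totals alone -0.35 (edgeR adjusted p = 0.259). TMM over 1 entry per distinct sequence gave -0.255 (edgeR adjusted p = 0.307), and leaving out WR replicate 1 gave -0.29 (edgeR adjusted p = 0.222). The opposite arm, miR-184-x, stood at 39.3, 30.5 and 29.8 TPM in YR and at 38.2, 46.2 and 42.3 TPM in WR, with a log2 fold change of -0.13 (edgeR adjusted p = 0.675). Without WR replicate 1 it was -0.40 (edgeR adjusted p = 0.173).

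The shortened entry miR-184-z had levels close to each other in the 2 groups. It stood at 91.9, 100.2 and 68.6 TPM in YR and at 85.2, 94.6 and 71.6 TPM in WR, overlapping, with a log2 fold change of 0.28 (SE 0.18, edgeR adjusted p = 0.364). As a share of miR-184-y plus miR-184-z it was 0.449%, 0.441% and 0.443% in YR and 0.320%, 0.352% and 0.334% in WR. These shares did not overlap between groups, and the 95% Wilson intervals for counting error were narrow, from 0.411% to 0.480% over the YR libraries and from 0.297% to 0.376% over the WR libraries.

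The ratio of a z entry to its arm was then compared across the table, a test chosen after these values had been seen. In 51 z entries that share their first 16 bases with an x or y entry of the same family, limma on log2 ratios called 0, with 4 at an unadjusted p under 0.05, a called share of 0%. For miR-184-z the log2 ratio was higher in YR by 0.41 (SE 0.12, 95% interval 0.11 to 0.71), with an adjusted p of 0.256. The 10 z entries without overlap between groups, miR-184-z among them, were 19.6% of the 51. miR-205-z made up 0.658% ± 0.088 of miR-205-x plus miR-205-z in YR and 0.672% ± 0.25 in WR (SD, n = 3 each), where WR replicate 1 was lowest at 0.389%.

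miR-31-x, known to rise in wounded epidermis of mammals, was rare. It was read 25, 8 and 31 times in the YR libraries and 165, 31 and 15 times in the WR libraries. WR replicate 1 held 165 of the 275 counts, and the other 5 libraries overlapped between groups. The means were 2.23 ± 1.09 TPM in YR and 8.44 ± 10.1 TPM in WR (SD, n = 3 each), and the log2 fold change was -1.55 (SE 0.92, edgeR adjusted p = 0.347). Without WR replicate 1 it was -0.17 (SE 0.50, adjusted p = 0.854). The high count coincided with the 36954 counts of imprinted-cluster names in the same library, whose part in it was not tested. The authors' deposited table gives miR-31-x a log2 fold change of -1.92 and an adjusted p of 0.323. For the other 9 members that table gives adjusted p-values between 0.715 and 1.

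One entry outside the 4 families carried the seed of miR-31-x. miR-72-x, with 0, 0 and 4 counts in YR and 5, 4 and 6 in WR, was 1 base longer than miR-31-x and differed from it by C11T and T17A, counted from the 5′ end with the base of miR-31-x first.
miR-72-x: aGGCAAGAtgttggcaaagctg

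**Figure D2:**
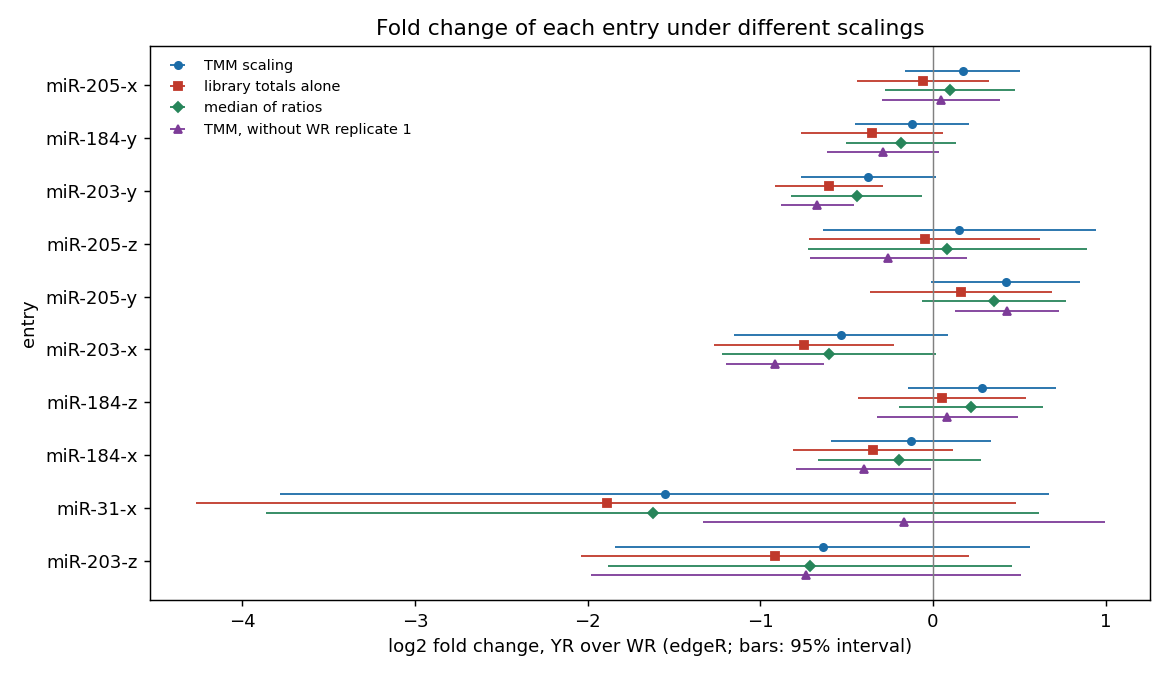
Log2 fold change (YR over WR) of each entry from edgeR with its 95% interval, after TMM scaling, with library totals alone, with median-of-ratios scaling, and after TMM scaling without WR replicate 1. The miR-203-y and miR-203-x points lie left of 0 in each, miR-205-x lies at 0.17 with TMM and at -0.06 with library totals alone, and miR-31-x moves to -0.17 without WR replicate 1.

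The share of the minor arm overlapped between the groups in each of the 3 families with both arms. miR-203-x was 0.994% ± 0.061 of both miR-203 arms in YR and 1.09% ± 0.16 in WR, miR-205-y was 0.478% ± 0.060 of both miR-205 arms in YR and 0.409% ± 0.097 in WR, and miR-184-x was 0.173% ± 0.034 of both miR-184 arms in YR and 0.171% ± 0.027 in WR (SD, n = 3 each). The abundant arm was thus the 5′ arm for miR-205 and the 3′ arm for miR-203 and miR-184 in each library. Limma on the log2 ratio of x to y, over 163 families with both arms, called 0 (a share of 0%), with 21 at an unadjusted p under 0.05. The difference of log2 ratios (YR minus WR) was -0.11 (SE 0.19, adjusted p = 0.86) for miR-203, -0.25 (SE 0.25, adjusted p = 0.773) for miR-205 and 0.02 (SE 0.23, adjusted p = 0.971) for miR-184. With the predicted 3′ entry counted, the 3′ arm made up 1.16% ± 0.16 of miR-205 in YR and 1.02% ± 0.18 in WR.

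**Figure D3:**
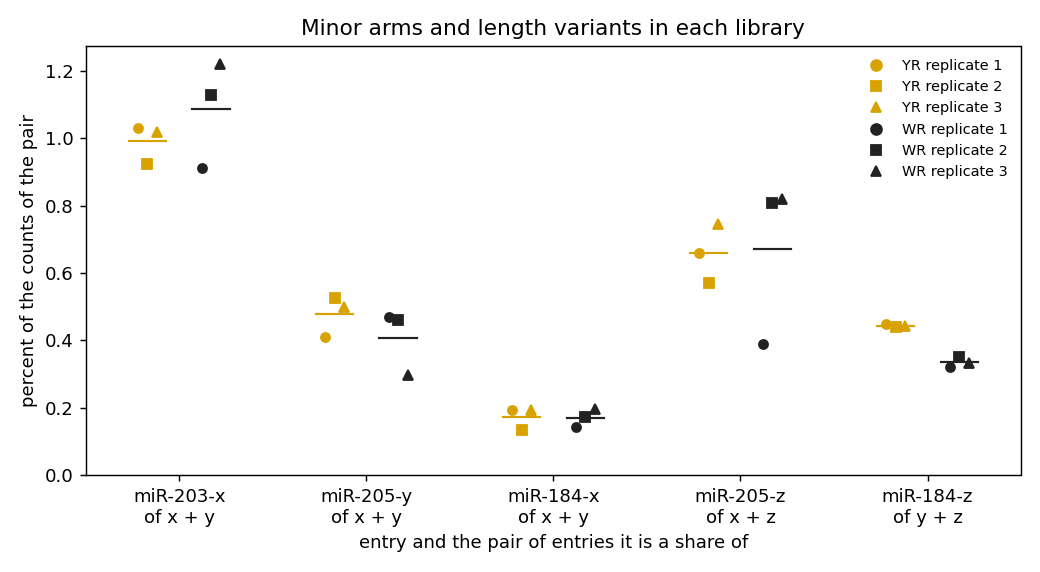
Share (percent) of each minor arm in the counts of both arms, and of miR-205-z and miR-184-z in the counts of the z entry and its arm, in each YR and each WR library with a line at the group mean. The groups overlap except for miR-184-z, which lies between 0.441% and 0.449% in YR and between 0.320% and 0.352% in WR.

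Shares of the library were compared by exact permutation tests over libraries, 2-sided. With groups of 3 the smallest p such a test can give is 0.1. The miR-203 family held 0.796%, 0.826% and 0.723% of the counts in YR and 1.03%, 1.35% and 1.17% in WR. The groups did not overlap, and the difference was -0.405 percentage points (exact p = 0.1, adjusted over the 10 shares and ratios compared 0.571). With totals multiplied by their TMM factors the miR-203 shares were 0.781%, 0.905% and 0.859% in YR and 0.865%, 1.25% and 1.19% in WR. These overlapped through WR replicate 1, and the difference was -0.255 percentage points (exact p = 0.2). The miR-184 family held 1.95%, 2.17% and 1.49% in YR and 2.53%, 2.57% and 2.06% in WR, with overlap (exact p = 0.2, adjusted 0.571). The miR-205 family held 3.86%, 3.12% and 3.11% in YR and 3.95%, 2.89% and 3.65% in WR, also with overlap (exact p = 0.9, adjusted 0.9).

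Ratios between families need no scaling between libraries. miR-203 stood to miR-205 as 0.206, 0.264 and 0.232 to 1 in the YR libraries and as 0.261, 0.469 and 0.322 to 1 in the WR libraries. The groups overlapped through WR replicate 1, which lay just below YR replicate 2. The mean log2 ratio was -2.10 ± 0.179 in YR and -1.56 ± 0.430 in WR (SD, n = 3 each), a difference of -0.54 (exact permutation test, 2-sided, p = 0.2, adjusted 0.571). Without WR replicate 1 the difference was -0.74 and without WR replicate 2 it was -0.31, both with the same sign. A share of the counts of the 4 families needs no scaling either. For miR-203 it was 12.1%, 13.5% and 13.6% in the YR libraries and 13.7%, 19.9% and 17.0% in the WR libraries. These did not overlap, by a narrow margin at WR replicate 1, and were not tested. The shares of miR-205, miR-184 and miR-31 in the 4 families overlapped between groups.

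miR-203 stood to miR-184 as 0.409, 0.380 and 0.484 to 1 in YR and as 0.406, 0.527 and 0.569 to 1 in WR. The groups overlapped, and the log2 ratio differed by -0.23 (exact permutation test, 2-sided, p = 0.3, adjusted 0.571). miR-205 stood to miR-184, the pair described as antagonists in human keratinocytes, as 1.98, 1.44 and 2.08 to 1 in YR and as 1.56, 1.12 and 1.77 to 1 in WR. These ratios overlapped, and the log2 ratio differed by 0.31 (exact permutation test, 2-sided, p = 0.3, adjusted 0.571). Ratios to miR-31 spanned the widest range, as its counts did, and their exact p-values were 0.8 for miR-203, 0.4 for miR-205 and 0.5 for miR-184.

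**Figure D4:**
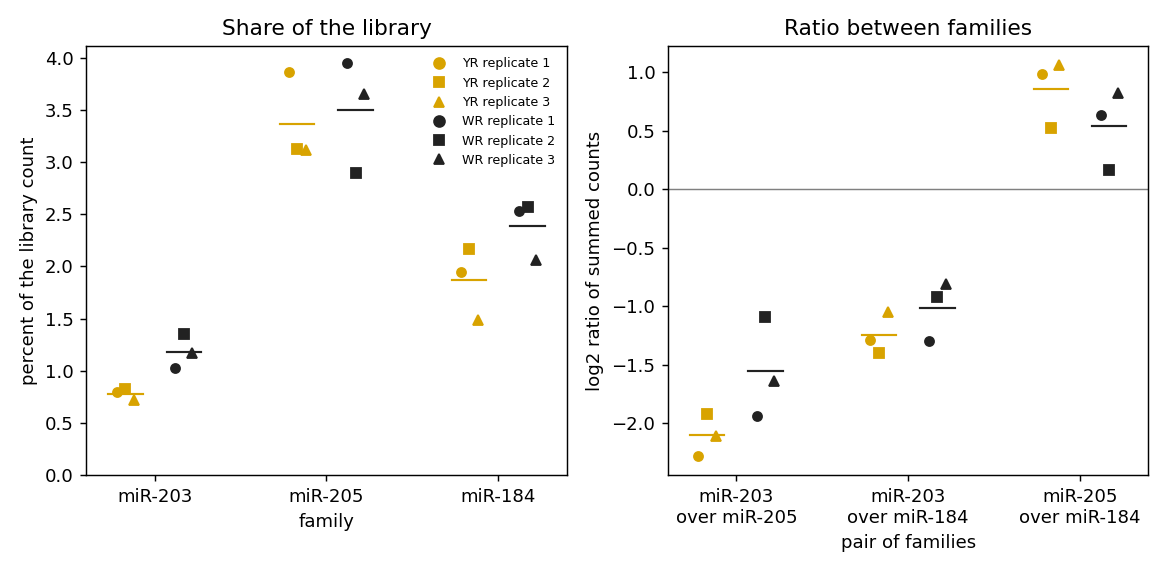
Left, share of the library count (percent) of the miR-203, miR-205 and miR-184 families in each YR and each WR library. Right, log2 ratio of the summed counts of each pair of these families, with lines at the group means. The miR-203 shares of YR, at most 0.826%, lie below those of WR, at least 1.03% (with TMM-scaled totals they overlap), while the log2 ratios overlap between groups.

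The 3 abundant entries differed in how they varied over the libraries. The Pearson r of log2 CPM was -0.601 between miR-203-y and miR-205-x, -0.704 between miR-184-y and miR-205-x and 0.545 between miR-203-y and miR-184-y, a description over 6 libraries that share their groups and scaling. Of 254 known entries of other families with a mean of at least 10 TPM, those most like miR-203-y were miR-429-y of the epithelial miR-200 family (r = 0.979), miR-27-x (r = 0.951) and miR-7132-y (r = 0.947). miR-27-x, miR-146-x and miR-200-z were most like miR-203-x (r from 0.973 to 0.978). Those most like miR-184-y were miR-145-y (r = 0.872), miR-141-y (r = 0.846) and miR-141-x (r = 0.784). For miR-205-x the closest were miR-92-y (r = 0.835), miR-454-x (r = 0.788) and miR-125-x (r = 0.786).

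The minor entries had other companions. Those most like miR-205-y were miR-22-y (r = 0.960), miR-23-x (r = 0.948) and miR-214-y (r = 0.948). Those most like miR-205-z were miR-7-x (r = 0.974), miR-10545-x (r = 0.970) and miR-93-x (r = 0.960). For miR-184-x they were miR-96-x (r = 0.958), miR-29-x (r = 0.937) and miR-222-y (r = 0.935), and for miR-184-z miR-206-z (r = 0.898), miR-22-x (r = 0.877) and miR-499-x (r = 0.869). With so few libraries such values describe the libraries and nothing more.

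Other epithelial miRNAs, listed as miR-200, miR-141, miR-429, miR-24 and miR-34, had 12 tested entries. Of these 0 were called by edgeR and 9 had negative log2 fold changes, with a median of -0.22. The negative entries were those of miR-34 and of miR-200 with its relatives miR-141 and miR-429. WR replicate 1 was the highest library for both miR-34 entries. It held 127.9 TPM of miR-34-x, against 12.67 to 47.77 elsewhere, and 33.44 TPM of miR-34-y, against 1.922 to 21.47. Their summed share of unscaled library totals was 2.91% to 3.27% in YR and 3.73% to 4.11% in WR. TMM-scaled shares of this list were not computed. With library totals alone the median log2 fold change was -0.44, beside -0.26 for all tested entries. Without WR replicate 1, 4 of the 12 were called lower in YR, against 10.4% of all tested entries, and the median was -0.41. miR-200-y, which keeps epithelial cells from turning mesenchymal in mammals, stood at 24350, 22550 and 22070 TPM in YR and at 26460, 31750 and 31550 TPM in WR, with a log2 fold change of -0.16 (SE 0.15, edgeR adjusted p = 0.534). miR-141-y, of the same seed family as part of miR-200, stood at 3697, 3811 and 3009 TPM in YR and at 5144, 4893 and 4262 TPM in WR, with a log2 fold change of -0.21 (SE 0.10, edgeR adjusted p = 0.282). In deposited TPM, which has no TMM scaling, both lay lower in every YR library than in every WR library. So did miR-203-y and 19.7% of all tested entries, while miR-205-x overlapped. The miR-24 entries of the list went the other way, with log2 fold changes of 0.34 for miR-24-y, 0.24 for miR-24-x and 0.28 for miR-24-z.

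Among markers of other cells, 1 of 10 mesenchyme entries and 1 of 5 liver and gut entries were called by edgeR, the first higher and the second lower in YR. Over all tested entries the called share was 5.28%. The other lists had 0 calls, of 5 entries for pigment cells, 9 for skeletal muscle, 5 each for red and white blood cells, 2 for endothelium, 8 for neural cells and 5 for sensory cells. Median log2 fold changes were 0.31 for mesenchyme, -0.57 for liver and gut, 0.24 for pigment cells, 0.18 for skeletal muscle, 0.01 for red blood cells, 0.15 for white blood cells, 0.32 for endothelium, 0.64 for neural cells and -0.71 for sensory cells. Those of pigment cells, mesenchyme and endothelium were 0.0054, 0.06 and 0.09 with library totals alone. In the same order they were 0.09, 0.36 and 0.23 without WR replicate 1. Some of the other medians turned with the scaling or with WR replicate 1. With library totals alone the medians were -0.02 for skeletal muscle, -0.09 for white blood cells and -0.26 for red blood cells. Without WR replicate 1 they were -0.08, -0.01 and 0.30 in the same order, and 3 of 5 sensory cell entries and 2 of 5 liver and gut entries were called lower in YR, against 10.4% of all tested entries. The part of these cells in the miR-203 values was not tested.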

How the data were processed

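Small RNA from trout dorsal skin was ligated at both ends and sequenced on an Illumina HiSeq Xten, per the labels' protocols. The authors' deposited table gives per miRNA a whole-number read count for each library. It also gives a TPM score, deposited per library, which sums to between 1039894 and 1052569. A TPM written for a count of 0 was set to 0. The authors' log2 fold change of group means, p-value and adjusted p-value are deposited without a stated test. The sources used here name no aligner, database or genome build.

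Of 1939 entries, the 834 whose TPM averaged 1 or more across the 6 libraries entered the test with edgeR 4.0.16 (R 4.3.3): TMM, quasi-likelihood test of YR against WR, Benjamini-Hochberg over all 834, threshold 0.05. The SE is the log2 fold change divided by the square root of F. Ratios of entries were tested with limma 3.58.1 on log2((TPM + 1)/(TPM + 1)), shares and family ratios by exact permutation. DESeq2 1.42.0 was an alternative, and log2 CPM used a prior count of 2. The edgeR comparison and the limma arm ratio were tested on simulated data, and the other steps were not. Wilson intervals of shares cover counting error only, while intervals of fold changes and log2 ratios include the spread between libraries.

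The members, lists and tests were chosen with earlier results of these data known. Named entries are the members, the 3 most correlated known entries of each member of at least 10 TPM, and the 2 most abundant of the epithelial list. The imprinted-cluster list, the test of z entries, and the counting of predicted near-copies were added after seeing the data. Replicates of a group differed by more than sampling noise (chi-square per degree of freedom 83.3 to 701).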

Additional observations from a re-analysis of the deposited data

How the results depend on the processing

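Of 148 values of the members' fold changes under alternatives, 138 kept their direction and their side of the threshold. miR-203-y and miR-203-x passed it without WR replicate 1 and in no other alternative, so the count of members called ran from 0 to 2 when single libraries were left out. The count over all entries was 75 with DESeq2, 16 with a minimum mean of 10 TPM, 21 with 1 entry per distinct sequence and 2 with the replicate block, against 44, and 118, 1 and 5 without WR replicates 1, 2 and 3 and 2, 18 and 9 without YR replicates 1, 2 and 3. The log2 fold change of miR-205-x turned negative with library totals alone (-0.0566), limma on log2(TPM + 1) (-0.0535), a minimum mean of 10 TPM (-0.0392) and without WR replicate 2 (-0.0767 to 0.281 without single libraries). That of miR-205-z did so with the first 3 (-0.0473, -0.0126 and -0.0423) and without WR replicate 1 (-0.258 to 0.482 without single libraries). The miR-205 share turned higher in YR with the 5 most abundant entries left out of the total (0.196 percentage points), with TMM-scaled totals (0.404) and without WR replicate 1, the range without single libraries being -0.436 to 0.0948. The log2 ratios of miR-203 and miR-184 to miR-31 turned without WR replicate 1, with ranges of -0.404 to 1.47 and -0.0274 to 1.60 without single libraries. The arm ratio count over all families was 1 when both arms needed 1 TPM and 0 to 4 without single libraries. The miR-184 arm difference turned without WR replicate 1 (-0.0972), YR replicate 1 (-0.0618) and YR replicate 3 (-0.0674), with a range of -0.0972 to 0.193. The z ratio of miR-203 turned with a pseudocount of 0.5 TPM (-0.0788) and without WR replicate 3 (-0.0176) or YR replicate 3 (-0.131 to 0.271 without single libraries), and that of miR-205 without WR replicate 1 (-0.316) or YR replicate 3 (-0.0536), with a highest value of 0.224. The cause was not tested. Same-numbered libraries correlated at 0.26, -0.104 and 0.27 in their deviations from the group means, and unlike-numbered libraries at -0.378 to 0.143. The values 0.26 and 0.27 thus lay above every unlike-numbered value. The labels do not say that a replicate number pairs libraries, so the replicate block was used only as an alternative. With the replicate block miR-203-y stood at -0.359 (edgeR adjusted p = 0.179) and no member passed.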
